A study of Homo sapiens with 5 samples.

Results

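The interval of human chromosome 6 from 25.7 to 33.5 Mb (hg19), which holds the large histone gene clusters and the major histocompatibility complex (MHC), was described from CUT&RUN peaks in MOLT-4 cells. All peaks whose midpoint lay in this 7.8 Mb interval were taken. They were 217 H3K4me3, 282 RUNX1 and 5 SMA4 peaks, 504 in all, of 51392 peaks on chromosomes 1 to 22 and X. The histone windows ran from 26.0 to 26.4 Mb (the first) and from 27.1 to 27.9 Mb (the second). The MHC window ran from 29.6 to 33.4 Mb, with the first 1.9 Mb taken as class I, the next 0.8 Mb as class III and the remainder as class II. The rest of chromosome 6, with 579 H3K4me3, 1879 RUNX1 and 82 SMA4 peaks over 163.1 Mb, served as the comparison.

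MOLT-4 is a long-established line of T cell acute lymphoblastic leukaemia, grown here in RPMI-1640 with 10% FBS and Pen/Strep and given no drug or genetic change in the labels. In CUT&RUN an antibody bound to its target in nuclei directs a protein A/G-fused micrococcal nuclease to cut nearby DNA, and the released fragments are sequenced, here as paired ends. There was 1 library for each of the antibodies against H3K4me3 (Epicypher), RUNX1 (Abcam) and SMA4 (Cell Signalling Technology), a name the labels do not spell out, and 2 IgG control libraries not analysed here. With no replicates no difference between groups of libraries was tested, and the intervals below cover counting error only, treating peaks as independent although neighbours are not. The headers of the SMA4 list name a different batch and a different peak-calling pipeline from those of the other lists, so antibody, batch and pipeline cannot be told apart where SMA4 is set beside them. The lists hold positions only, so the depth behind a peak, its height and the IgG signal under it are unknown here.

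H3K4me3, trimethylation of lysine 4 of histone H3, marks the promoters of active and poised genes. RUNX1 is a runt-domain transcription factor needed for blood stem cell formation and T cell development, and it binds a short core sequence at promoters and enhancers. Replication-dependent histone genes encode the H1 linker and the H2A, H2B, H3 and H4 core histones, are transcribed in S phase, and often lie head to head so that a pair shares 1 promoter. The MHC holds class I genes, whose products present peptides from inside the cell to CD8+ T cells, class II genes, whose products present peptides taken up from outside to CD4+ T cells, and between them the gene-dense class III segment with complement, tumour necrosis factor family and housekeeping genes. BRD2, inside the class II segment, encodes a bromodomain protein of the BET family that reads acetylated histones and is not an antigen-presenting molecule.

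In the RefSeq gene order (GRCh38.p14) the chromosome carries 55 protein-coding histone genes in 2 groups. The first, from H2AC1 to H4C8, has 34 genes, namely 5 H1, 5 H2A, 9 H2B, 7 H3 and 8 H4 genes. The second, from H2BC11 to H2BC17, has 21 genes, of which 1 encodes H1, 7 H2A, 6 H2B, 3 H3 and 4 H4. Between the first and the last histone gene the table lists 98 tRNA genes, which RNA polymerase III transcribes. From the last histone gene to HLA-F it lists another 46 tRNA genes, 16 olfactory receptor genes and 12 zinc finger gene symbols. From HLA-DRA to HLA-DPB1 there are 18 protein-coding genes, 13 of them HLA genes. Apart from BRD2, whose hg19 position was given with the choice of the interval, no peak was assigned to a gene, because no annotation in the build of the peaks was used here.

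The promoters of a head-to-head histone pair, of an H4 gene with a RUNX core and of BRD2 are shown to give the sequence behind the windows. They are RefSeq sequences (GRCh38.p14), the 250 bases before each gene's annotated start, written on the strand of the gene, minus for H2AC7 and H4C4 and plus for H2BC7 and BRD2. Capitals mark the RUNX core TGTGGT, or ACCACA where it lies on the opposite strand.
H2AC7: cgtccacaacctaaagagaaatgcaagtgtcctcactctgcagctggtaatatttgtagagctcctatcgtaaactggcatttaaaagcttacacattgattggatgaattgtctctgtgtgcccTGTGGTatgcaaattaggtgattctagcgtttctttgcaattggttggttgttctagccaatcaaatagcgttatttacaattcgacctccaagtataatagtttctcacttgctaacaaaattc
H2BC7: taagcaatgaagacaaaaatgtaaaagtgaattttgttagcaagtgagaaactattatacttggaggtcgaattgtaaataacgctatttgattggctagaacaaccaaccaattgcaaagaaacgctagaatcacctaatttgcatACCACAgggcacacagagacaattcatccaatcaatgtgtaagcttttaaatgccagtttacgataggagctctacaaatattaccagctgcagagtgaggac
H4C4: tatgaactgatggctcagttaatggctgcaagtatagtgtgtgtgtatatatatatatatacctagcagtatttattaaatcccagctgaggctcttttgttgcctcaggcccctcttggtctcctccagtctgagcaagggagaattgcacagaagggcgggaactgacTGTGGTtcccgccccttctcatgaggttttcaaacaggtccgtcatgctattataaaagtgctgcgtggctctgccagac
BRD2: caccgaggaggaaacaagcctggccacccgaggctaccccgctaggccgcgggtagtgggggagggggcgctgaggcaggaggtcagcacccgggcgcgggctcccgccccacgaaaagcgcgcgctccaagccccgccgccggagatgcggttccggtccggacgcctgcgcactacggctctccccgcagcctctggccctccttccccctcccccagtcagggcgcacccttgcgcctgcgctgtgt

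The H2AC7 sequence and the reverse complement of the H2BC7 sequence share 222 bases, so the core in both is 1 and the same site in the genome. With -1 the last base before the start, the core begins at base -125 of H2AC7, at -103 of H2BC7 and at -80 of H4C4. RefSeq gives H3C4 the same promoter sequence as H2AC7. In the printed H2AC7 and H2BC7 sequences the octamer ATTTGCAT, the element bound by OCT1 in H2B promoters, stands directly beside the core. G and C made up 38.8% of the H2AC7 sequence, 36.8% of H2BC7, 46.8% of H4C4 and 74.0% of BRD2. The BRD2 bases hold no TGTGGT, but they hold TGCGGT, a form of the core counted only under the wider RUNX motif and not marked here.

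Over 300-base promoters (250 bases before to 50 after the start), searched on both strands, the core TGTGGT was found in 9 of the 50 matched histone genes of 55 (18.0%, 95% Wilson interval 9.77 to 30.8). These were H2AC1, H2BC1, H3C2, H4C4, H3C4, H2AC7, H2BC7, H2BC10 and H2AC11. Of all 35116 promoters 13.1% held the core, and of 1312 protein-coding promoters of chromosome 6, 11.1%, so the histone interval takes in both shares. By position, 8 of 32 promoters of the first histone group (25.0%, 13.3 to 42.1) and 1 of 18 of the second (5.56%, 0.988 to 25.8) held it. Among 30 matched genes of 34 listed for the MHC, HLA-DOA and LTA did (6.67%, 1.85 to 21.3); HLA-DOA modulates peptide loading of class II molecules and LTA encodes lymphotoxin alpha. Genes that share a promoter are counted once each, so the counts are not independent, and a match of these letters is not a binding site.

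The octamer ATTTGCAT, searched the same way after the promoters had been seen, was found in 12 of 15 H2B promoters (80.0%) and 9 of 11 H2A promoters (81.8%), and promoters shared by a pair, such as H2AC7 and H2BC7, count once for each gene. It was in 1 of 8 H3, 0 of 10 H4 and 0 of 6 H1 promoters, in 0 of the 30 MHC genes, and in 1.77% of all promoters. The H3 promoter was that of H3C4, to which RefSeq gives the same sequence as H2AC7. The median share of G and C was 42.3% over the histone promoters, 59.8% over the MHC genes and 58.7% over all promoters.

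H3K4me3 peaks were dense in the histone windows, the MHC classes and the segments that link them. The whole interval held 27.8 H3K4me3 peaks per Mb, 7.84 times the 3.55 per Mb (95% exact Poisson interval 3.27 to 3.85) of the rest of chromosome 6. The first histone window held 65.0 per Mb (42.5 to 95.2) and the second 42.5 per Mb (29.4 to 59.4), 18.3 and 12.0 times the rest. MHC class III held 50 per Mb (35.7 to 68.1), the same density as the histone windows joined (50 per Mb, 38.2 to 64.4). Class II held 25.5 per Mb (16.9 to 36.8) and class I 21.1 per Mb (15.0 to 28.7). Peaks of the class II window were unevenly spread. None lay up to chr6:32805493 and none for 225 kb after the H3K4me3 peak at BRD2, whereas 10 lay at 33.2 to 33.3 Mb. The values for class II are those of the whole window, and none of its peaks was assigned to an HLA gene. The segment between the histone windows held 27.1 per Mb, and that from the second window to the MHC held 15.9 per Mb. The intervals of class I, class II and both of these linking segments overlap one another, whereas the interval of the histone windows joined lies above those of class I and class II. All of these lie above the rest of the chromosome. The outer edges of the interval, 0.3 Mb before the first histone window and 0.1 Mb after the MHC, held 3 H3K4me3 peaks, 7.50 per Mb (1.55 to 21.9), which takes in the density of the rest.

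**Figure D1:**
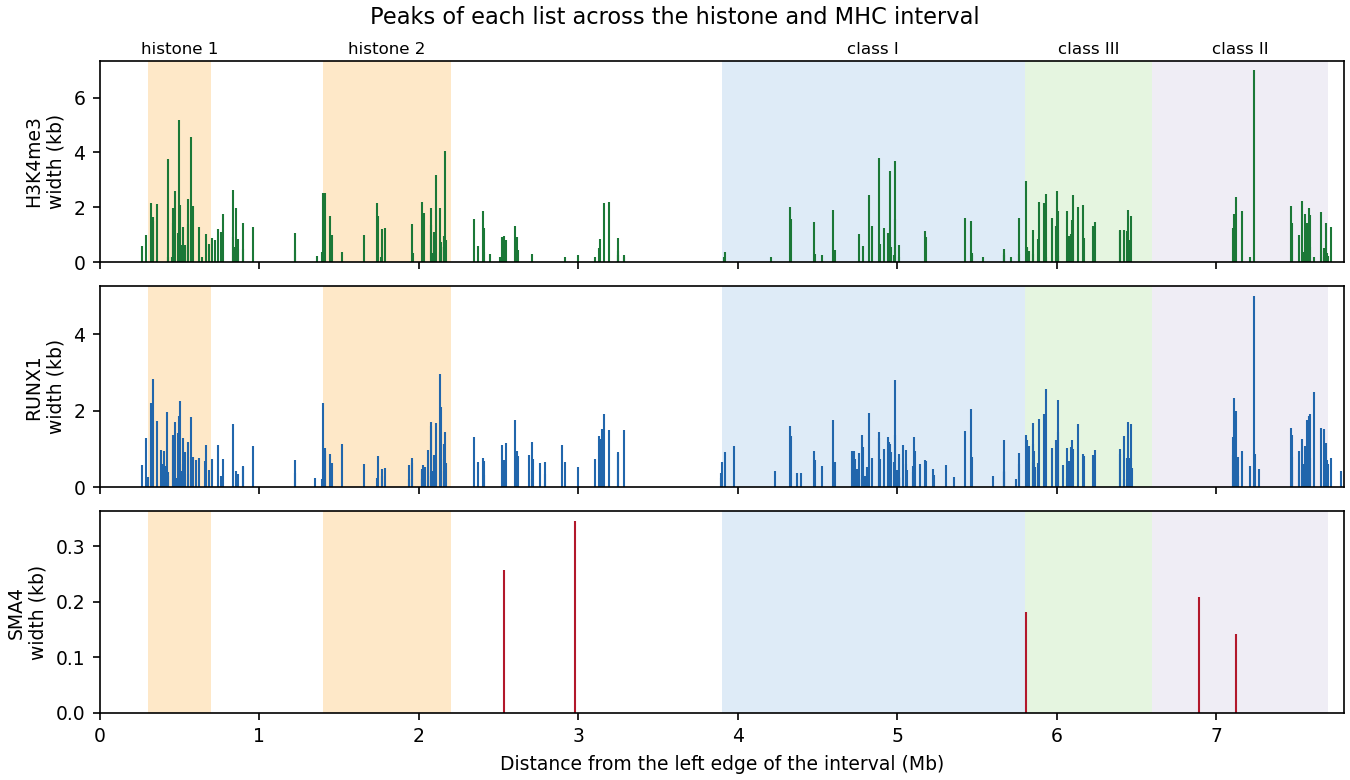
Every peak of the interval, plotted at its distance in Mb from the left edge of the interval with its width in kb as bar height, for H3K4me3, RUNX1 and SMA4 from top to bottom. Shading marks the histone windows and MHC classes; the tallest H3K4me3 and RUNX1 bars, 6996 and 5005 bp, stand together in class II.

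RUNX1 peaks were dense in the histone windows and the MHC classes, but less so relative to the rest of the chromosome, where they were more frequent than H3K4me3 peaks. The interval held 36.2 RUNX1 peaks per Mb, 3.14 times the 11.5 per Mb (11.0 to 12.1) of the rest. The first histone window had 92.5 per Mb (65.1 to 127), class III and the second histone window 53.8 per Mb each (38.9 to 72.4), class I 37.9 per Mb (29.7 to 47.7) and class II 30.9 per Mb (21.4 to 43.2). From the second histone window to the MHC there were 20.6 per Mb (14.3 to 28.6). Between the histone windows there were 14 peaks (an interval of 10.9 to 33.6 per Mb) and at the outer edges 10.0 per Mb (2.72 to 25.6), and both intervals take in the density of the rest. In class III RUNX1 peaks were as many as H3K4me3 peaks within a few, 43 against 40, a ratio of 1.07 RUNX1 peaks per H3K4me3 peak. The ratio was 1.33 in the histone windows, 1.21 in class II and 1.80 in class I, and 3.25 on the rest of the chromosome. The segment between the histone windows was the only one with fewer RUNX1 than H3K4me3 peaks, 14 against 19.

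**Figure D2:**
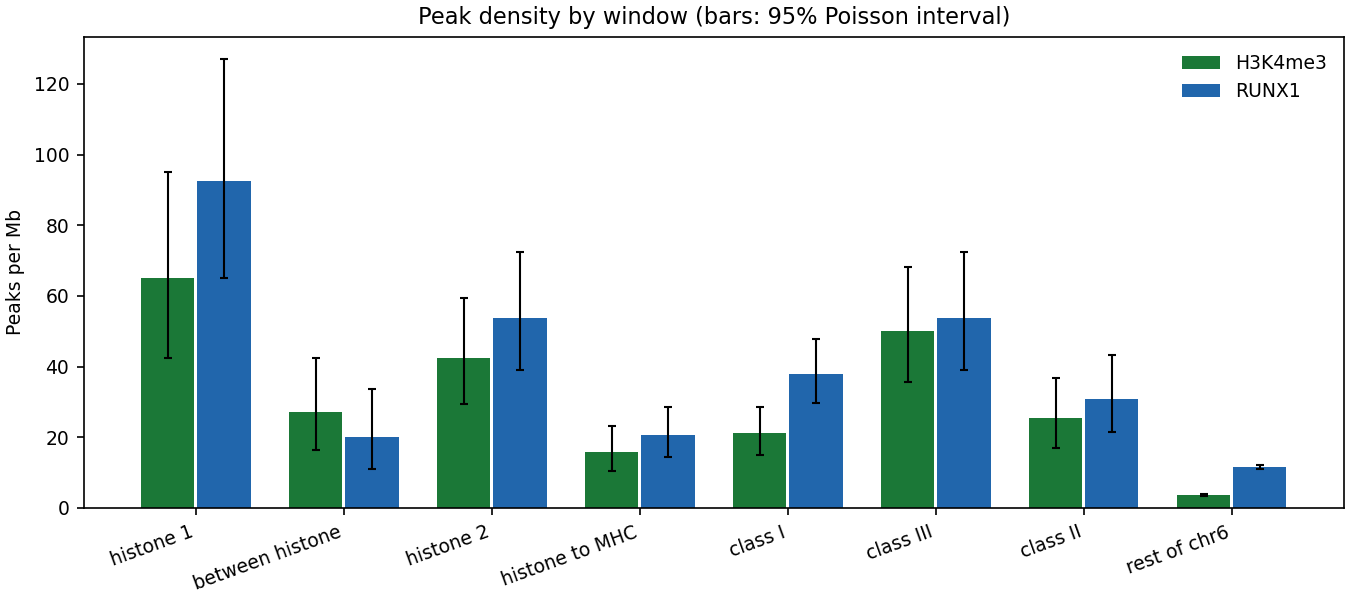
Peaks per Mb of H3K4me3 (green) and RUNX1 (blue) in each segment of the interval and on the rest of chromosome 6, with 95% exact Poisson intervals as error bars. The first histone window is highest for both lists (65.0 and 92.5 per Mb), against 3.55 and 11.5 per Mb on the rest of the chromosome; the 0.3 and 0.1 Mb at the outer edges of the interval are not drawn.

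In bases, H3K4me3 peaks covered 3.30% of the interval and 0.385% of the rest of chromosome 6. They covered 10.9% of the first histone window, 5.49% of the second, 6.31% of class III, 3.29% of class II and 2.17% of class I. RUNX1 peaks covered 3.34% of the interval, nearly the same share as H3K4me3 although RUNX1 covered 0.923% of the rest of the chromosome. Of the 20 bins of 100 kb with the most H3K4me3 peaks on chromosome 6, 16 lay among the 78 bins of the interval, and of the 20 richest in RUNX1, 10 did. The 3 bins richest in H3K4me3 had 10 peaks each, at 27.8 to 27.9 Mb in the second histone window, 31.7 to 31.8 Mb in class III and 33.2 to 33.3 Mb in class II. The 3 bins of the interval richest in RUNX1, which ranked 3, 4 and 5 on the chromosome, had 15 peaks at 26.1 to 26.2 Mb, 14 at 27.7 to 27.8 Mb, both in histone windows, and 13 at 30.6 to 30.7 Mb in class I.

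Peaks within the histone windows stood close together. The median distance from an H3K4me3 peak to the nearest other was 3.71 kb there, 1.83 kb in class III, 3.27 kb in class II, 3.81 kb in class I and 27.0 kb on the rest of chromosome 6. For RUNX1 it was 0.535 kb in the histone windows, 3.04 kb in the MHC and 5.51 kb on the rest. Within the MHC it was 1.12 kb in class II, 1.68 kb in class III and 4.04 kb in class I. Joined across gaps of at most 10 kb, the longest H3K4me3 run in the second histone window, chr6:27774961-27807406, held 6 H3K4me3 and 11 RUNX1 peaks over 32.4 kb. In the first histone window 9 RUNX1 peaks with 4 H3K4me3 peaks ran over 35.9 kb at chr6:26170789-26206693. Other runs of 6 H3K4me3 peaks lay at chr6:27094706-27115367, at the left edge of the second histone window, at chr6:31789531-31804923 in class III and at chr6:33377782-33398894 in class II. By the joining rule each run is a set of separate called peaks with gaps, so the runs do not bear on the width of domains.

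The median H3K4me3 peak was wider in the histone windows than on the rest of the chromosome, though not beyond counting error. It measured 1276 bp (95% order-statistic interval 988 to 1664) in the histone windows, against 893 bp (775 to 995) on the rest of chromosome 6 and 938 bp over all chromosomes. It was 1157 bp (880 to 1522) in class III, 1109 bp (459 to 1750) in class II, 633 bp (378 to 1238) in class I and 502 bp (275 to 913) between the second histone window and the MHC. The interval of the histone windows overlaps slightly with that of the rest of the chromosome and overlaps those of the 3 MHC classes. It lies above that of the segment between the second histone window and the MHC. Peaks of 2 kb or more made up 15 of 60 in the histone windows (25.0%), 16 of 108 in the MHC (14.8%) and 82 of 579 on the rest (14.2%). RUNX1 peaks had a median of 754 bp (611 to 915) in the histone windows and 842 bp (746 to 954) in the MHC, and of 653 bp (623 to 683) on the rest. The MHC interval thus lies above that of the rest, and the histone interval overlaps it.

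**Figure D3:**
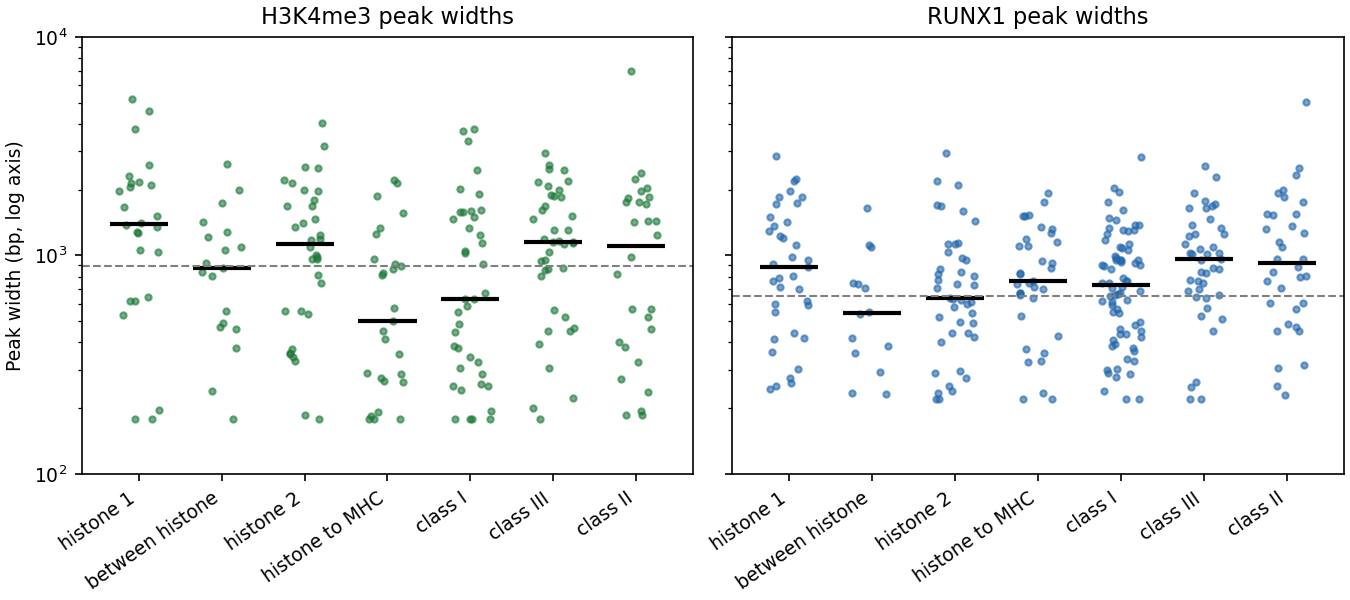
Width of every H3K4me3 (left) and RUNX1 (right) peak by segment on a log axis in bp, with black bars at the medians and a dashed line at the median of the rest of chromosome 6 (893 and 653 bp). H3K4me3 medians run from 502 bp between the second histone window and the MHC to 1394 bp in the first histone window.

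In the first histone window the widest H3K4me3 peak was chr6:26195500-26200694, 5195 bp, the 17th widest of 13181 and the 2nd on chromosome 6. It carried 3 RUNX1 peaks and stood inside the run of 9 RUNX1 peaks described above. The next were chr6:26270184-26274744 (4561 bp) and chr6:26123075-26126842 (3768 bp), each with 2 RUNX1 peaks. The widest RUNX1 peaks there were chr6:26031874-26034708 (2835 bp), which spanned 2 H3K4me3 peaks, chr6:26204447-26206693 (2247 bp) and chr6:26020509-26022700 (2192 bp), each on 1 H3K4me3 peak. All 6 of these peaks joined RUNX1 and H3K4me3. For the H3K4me3 peaks this is the general case, since 1581 of 1582 of 2 kb or more on all chromosomes met RUNX1 (99.9%). No share by width was computed for RUNX1 peaks.

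In the second histone window chr6:27859480-27863516 (4037 bp) and chr6:27804245-27807406 (3162 bp) each carried 3 RUNX1 peaks. The next in width, chr6:27099085-27101624 (2540 bp), was matched almost end to end by 1 RUNX1 peak, chr6:27099145-27101338 (2194 bp). The widest RUNX1 peak, chr6:27832916-27835871 (2956 bp), spanned 2 H3K4me3 peaks, and chr6:27839528-27841637 (2110 bp) spanned 3. RUNX1 peaks therefore both split under 1 H3K4me3 peak and bridged several in this window. Between the windows the widest H3K4me3 peak, chr6:26536955-26539586, measured 2632 bp and carried 1 RUNX1 peak, chr6:26537383-26539030 (1648 bp), the widest RUNX1 peak there. The next H3K4me3 peaks, chr6:26553133-26555114 (1982 bp) and chr6:26473893-26475635 (1743 bp), also carried 1 RUNX1 peak each. The next RUNX1 peaks, chr6:26440012-26441128 (1117 bp) and chr6:26659416-26660504 (1089 bp), were each on 1 H3K4me3 peak.

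Among H3K4me3 peaks that met RUNX1, 12 of 51 in the histone windows (23.5%) carried 2 or more RUNX1 peaks, 9 of 98 in the MHC (9.18%) and 59 of 512 on the rest of chromosome 6 (11.5%). In the same order 10, 30 and 195 were wholly covered by RUNX1 peaks, which is 19.6%, 30.6% and 38.1%. The median share of an H3K4me3 peak's bases under RUNX1 was 80.0% in the histone windows, 84.1% in the MHC and 89.6% on the rest. RUNX1 peaks thus covered most of a typical H3K4me3 peak in each. The share of these H3K4me3 peaks with 2 or more RUNX1 peaks was largest in the histone windows, mostly through the second. It was 8 of 28 there (28.6%) and 4 of 23 in the first (17.4%). The MHC classes ran from 5.56% in class III to 14.7% in class I. H3K4me3 peaks of 2 kb or more were also more frequent in the histone windows (25.0%, against 14.8% in the MHC and 14.2% on the rest). No intervals were computed for these shares, and the part of peak width in the share with 2 or more RUNX1 peaks was not tested.

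In class I the widest H3K4me3 peaks were chr6:30582589-30586382 (3794 bp, 2 RUNX1 peaks), chr6:30686816-30690505 (3690 bp, 3 RUNX1 peaks) and chr6:30650267-30653589 (3323 bp, 3 RUNX1 peaks). They lay within a stretch of little more than 100 kb, next to or in the bin richest in RUNX1 of class I. The widest RUNX1 peak of class I, chr6:30687036-30689846 (2811 bp), was on the second of them. The next, chr6:31164529-31166572 (2044 bp), spanned 2 H3K4me3 peaks, and chr6:30523754-30525694 (1941 bp) was on 1. In class III they were chr6:31508002-31510950 (2949 bp), which also held an SMA4 peak, chr6:31702433-31705018 (2586 bp, 3 RUNX1 peaks) and chr6:31632132-31634623 (2492 bp). The last was covered from end to end by the widest RUNX1 peak of class III, chr6:31632129-31634692 (2564 bp). The next RUNX1 peaks there were chr6:31704528-31706815 (2288 bp), which spanned 3 H3K4me3 peaks, and chr6:31619343-31621263 (1921 bp), on 1. In the segment from the second histone window to the MHC the widest H3K4me3 peaks were chr6:28890229-28892440 (2212 bp) and chr6:28863168-28865313 (2146 bp), followed by chr6:28103834-28105702 (1869 bp), each with 1 RUNX1 peak. The widest RUNX1 peaks of that segment, chr6:28863102-28865029 (1928 bp) and chr6:28303150-28304913 (1764 bp), were each on 1 H3K4me3 peak.

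At BRD2 the H3K4me3 peak chr6:32935330-32942325 measured 6996 bp, the widest on chromosome 6 and the 2nd widest of all 13181. It held 19.3% of all bases under H3K4me3 peaks in class II, where the next widest, chr6:32820559-32822952, measured 2394 bp and the next after it, chr6:33238789-33241035, 2247 bp. RUNX1 peaks of 5005 bp (chr6:32935579-32940583) and 883 bp (chr6:32940973-32941855) covered 84.2% of it. The wider of these was the widest RUNX1 peak of the interval, the 5th widest on chromosome 6 and the 33rd of 36736. No SMA4 peak met the BRD2 peak. The RUNX1 peaks of class II that followed in width were chr6:33311350-33313852 (2503 bp), on 1 H3K4me3 peak, and chr6:32811443-32813785 (2343 bp), on 2.

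The BRD2 peak stood apart from its neighbours. The nearest H3K4me3 peak on the side of lower coordinates was 187 bp wide and 22.9 kb away, the one before that was 71.8 kb away, and the next in the other direction was 225 kb away. In RefSeq order the genes on the first side are HLA-DMA and HLA-DMB, which load peptides onto class II molecules, then PSMB9, TAP1, PSMB8 and TAP2, immunoproteasome subunits and peptide transporters of the class I pathway. On the other side follow HLA-DOA, HLA-DPA1, HLA-DPB1 and COL11A2, a collagen gene. Within the 225 kb there was 1 RUNX1 peak, chr6:32967802-32968271 (470 bp). Absence of a peak says only that none passed the authors' calling, and the sequence differences between people in this region were not looked at here.

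**Figure D4:**
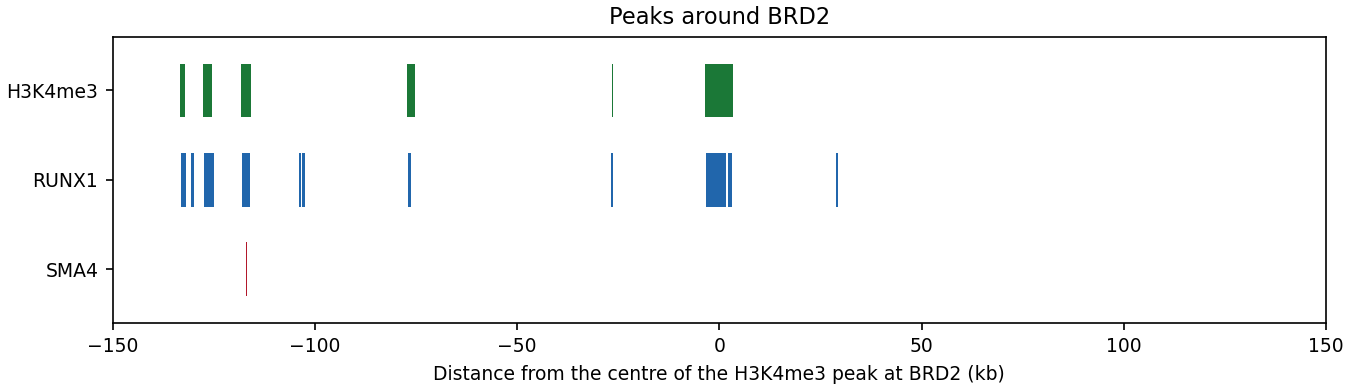
Peaks of the 3 lists within 150 kb of the centre of the H3K4me3 peak at BRD2, which is at 0 on the axis in kb. Bars are drawn to the width of the peak, except that the narrowest peaks are drawn wider to be visible. A 6996 bp H3K4me3 peak with 2 RUNX1 peaks stands at the centre, a cluster of peaks with 1 SMA4 peak lies more than 100 kb to the left, and no H3K4me3 peak lies to the right.

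Long stretches of the interval carried no H3K4me3 peak. The longest, chr6:32164394-32805493 at the start of class II, spanned 641 kb with 1 RUNX1 and 1 SMA4 peak. The next, chr6:28985197-29615365 before the MHC, spanned 630 kb with 3 RUNX1 peaks, and chr6:29618041-29910161 at the start of class I spanned 292 kb with 1 RUNX1 peak. The last pair is separated by narrow H3K4me3 peaks of 179 and 378 bp. Without a peak of any list were chr6:28985197-29596094 (611 kb), chr6:32170620-32590972 (420 kb) and chr6:26660505-26923818 (263 kb, between the histone windows). Among stretches without any peak on all of chromosome 6 they ranked 54, 71 and 125, and the longest there spanned 5994 kb. Gaps in the reference sequence were not taken out of these stretches, nor out of the length of the rest of the chromosome. Of the 78 bins of the interval 25 held no H3K4me3 peak. Whether near-identical gene copies or differences from the reference lowered the number of placed reads in the histone genes or the MHC was not tested, because the lists hold no reads. The headers of the H3K4me3 and RUNX1 lists name signal from unique reads, without saying how these were defined.

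Almost all H3K4me3 peaks met a RUNX1 peak, in the interval as elsewhere. Of all H3K4me3 peaks on chromosomes 1 to 22 and X, 88.1% shared at least 1 bp with a RUNX1 peak, and of those in the interval 188 of 217 did (86.6%, 95% Wilson interval 81.5 to 90.5). The share was 51 of 60 (85.0%, 73.9 to 91.9) in the histone windows, 98 of 108 (90.7%, 83.8 to 94.9) in the MHC and 512 of 579 (88.4%, 85.6 to 90.8) on the rest of chromosome 6. In class II it was 28 of 28 (87.9 to 100), in class III 36 of 40 (90.0%) and in class I 34 of 40 (85.0%). Between the histone windows it was lowest, 13 of 19 (68.4%, 46.0 to 84.6). Each of these shares is within counting error of the background except the last, whose upper bound lies below 88.1%. When the midpoint of the H3K4me3 peak had to lie in a RUNX1 peak, 78.9% of H3K4me3 peaks on all chromosomes and 81.0% on the rest of chromosome 6 met RUNX1. Under that rule the share was 71.7% (59.2 to 81.5) in the histone windows and 85.2% (77.3 to 90.7) in the MHC, and both intervals take in the background.

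The share rose with the width of the H3K4me3 peak. Under 500 bp it was 42 of 63 in the interval (66.7%), from 500 to 1000 bp 39 of 46 (84.8%), from 1000 to 2000 bp 73 of 74 (98.6%), and at 2000 bp or more 34 of 34. The rest of chromosome 6 gave 70.2%, 94.2%, 99.4% and 100% in the same order. In the histone windows 4 of 10 peaks under 500 bp met RUNX1 (40.0%, 16.8 to 68.7). Over all chromosomes 68.5% of peaks of that width did, just below the upper bound. The 29 H3K4me3 peaks of the chromosome 6 interval that met no RUNX1 peak were narrow, their median being 330 bp where that of the others was 1157 bp. The only one of 1 kb or more was chr6:27729221-27731019, 1799 bp, in the second histone window.

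Read from the other side, RUNX1 peaks were on H3K4me3 more often in the interval than elsewhere. Over all chromosomes 32.2% of RUNX1 peaks shared at least 1 bp with an H3K4me3 peak, and on the rest of chromosome 6 524 of 1879 did (27.9%, 25.9 to 30.0). In the interval 198 of 282 did (70.2%, 64.6 to 75.2). The share was 63 of 80 (78.8%, 68.6 to 86.3) in the histone windows and 98 of 149 (65.8%, 57.8 to 72.9) in the MHC. Within the MHC it was 36 of 43 in class III (83.7%), 25 of 34 in class II (73.5%) and 37 of 72 in class I (51.4%, 40.1 to 62.6). Between the histone windows 13 of 14 RUNX1 peaks were on H3K4me3 (92.9%), and from the second window to the MHC 21 of 35 (60.0%). Every one of these segments lay above the rest of the chromosome beyond counting error, with class I lowest.

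Since H3K4me3 peaks are dense in the interval, the share of RUNX1 peaks on them was also set out by the number of H3K4me3 peaks nearby. No class of this split was planned beforehand. In bins of 100 kb with 1 H3K4me3 peak the share was 42.9% in the interval (21.4 to 67.4) and 42.1% on the rest of chromosome 6 (37.9 to 46.4). With 2 to 3 it was 54.3% (42.7 to 65.4) and 55.2% (50.2 to 60.2). With 4 or more, a class added after the data had been seen, it was 154 of 192 in the 26 bins of the interval (80.2%, 74.0 to 85.2) and 101 of 194 in the 27 bins of the rest (52.1%, 45.1 to 59.0). In those bins H3K4me3 peaks covered 8.15% of bases in the interval and 4.33% on the rest, so the bins were not alike in H3K4me3, and the part of that difference in the result was not tested. Bins without H3K4me3 held 0.240 RUNX1 peaks each in the interval (6 in 25 bins) and 0.623 each on the rest (796 in 1277 bins).

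**Figure D5:**
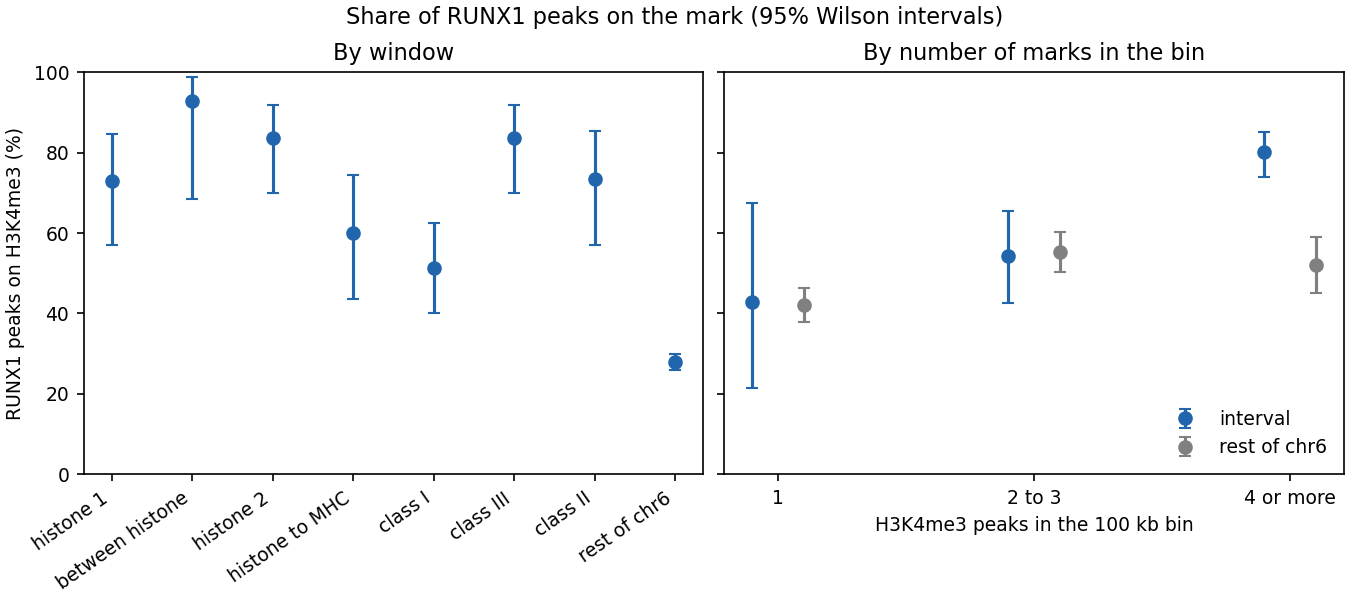
Percent of RUNX1 peaks sharing at least 1 bp with an H3K4me3 peak, by segment (left) and by the number of H3K4me3 peaks in the 100 kb bin (right; blue the interval, grey the rest of chromosome 6), with 95% Wilson intervals. The rest of chromosome 6 stands at 27.9% on the left, and on the right the pairs lie together at 1 and at 2 to 3 and apart at 4 or more (80.2% and 52.1%).

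The interval held 84 RUNX1 peaks off H3K4me3, of which 17 lay in the histone windows, 35 in class I, 7 in class III and 9 in class II. They were narrower than those on H3K4me3, with median widths of 489 and 925 bp, as on the rest of chromosome 6 (538 and 1087 bp). Their median distance to the nearest H3K4me3 peak was 13.7 kb in the interval and 61.5 kb on the rest. In class I 26 of 35 lay more than 10 kb away (74.3%, against 84.8% on the rest and 81.2% over all chromosomes). The median distance in class I was 29.6 kb. In class II 5 of 9 lay within 1 kb (55.6%, against 3.47% on the rest and 4.16% over all chromosomes). The median distance in class II was 0.880 kb. The widest were chr6:28851289-28852815 (1527 bp), between the second histone window and the MHC and 10.4 kb from H3K4me3, and in class I chr6:30476201-30477572 (1372 bp, 6.36 kb) and chr6:30802115-30803424 (1310 bp, 72.1 kb). Class I thus had the most RUNX1 peaks off H3K4me3 by number, and the largest median distance among the MHC classes. It is also the longest segment, 1.9 Mb, and the first histone window held 10 such peaks over 0.4 Mb. Peaks off H3K4me3 were 35 of 72 in class I and 1355 of 1879 on the rest, where they also lay farther away.

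The interval held 5 SMA4 peaks, 0.641 per Mb (0.208 to 1.50), where the density on the rest of chromosome 6, 0.503 per Mb, would give 3.92. The histone windows held none, which allows up to 3.07 per Mb (95% exact Poisson upper bound), and the density of the rest would give 0.603 peaks there. Of all SMA4 peaks 65.9% met a RUNX1 peak and 21.8% an H3K4me3 peak. In the interval 3 of 5 met both (60.0%, 23.1 to 88.2). On the rest of chromosome 6, 53 of 82 met RUNX1 (64.6%) and 13 of 82 H3K4me3 (15.9%, 9.51 to 25.3). With 5 peaks the RUNX1 share cannot be told from the background, and for H3K4me3 the lower bound of the interval, 23.1%, lies just above 21.8%. Without the peaks at the minimum width of each list (141 bp for SMA4), 2 of 4 SMA4 peaks met H3K4me3 (15.0 to 85.0). That takes in the 21.9% of all SMA4 peaks under the same rule.

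The SMA4 peak chr6:28234852-28235108 (257 bp), between the second histone window and the MHC, lay on H3K4me3 and RUNX1 peaks of 960 and 714 bp. In class III, chr6:31509552-31509733 (182 bp) lay on the widest H3K4me3 peak of that segment (2949 bp) and on a RUNX1 peak of 1379 bp. In class II, chr6:32821666-32821806 (141 bp, the narrowest width in that list) lay on H3K4me3 and RUNX1 peaks of 2394 and 1997 bp. The other SMA4 peaks met neither. Of these chr6:28679984-28680328 (345 bp) lay 16.4 kb from H3K4me3, and chr6:32590973-32591180 (208 bp) lay alone in the long empty stretch of class II, 214 kb from the nearest H3K4me3 and RUNX1 peaks.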

How the data were processed

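The 3 deposited lists give the chromosome, start and end of each peak (other columns were not used). The submitters' processing notes name hg19, MACS2 and SEACR, with no versions. Per the file headers, the authors called the H3K4me3 and RUNX1 peaks with MACS2, in a folder named batch 2, beside signal named as deduplicated and unique, and the SMA4 peaks with cutruntools at q under 0.01, in a folder named batch 3. If unique means uniquely placed reads, near-identical histone or MHC copies would lose reads. The aligner and read depth are unknown here. Starts were shifted to 1-based coordinates. A peak belonged to a window by its midpoint, and peaks overlapped when sharing at least 1 bp. Shares carry 95% Wilson, densities 95% exact Poisson and medians 95% order-statistic intervals. Python 3.11.15, numpy 2.4.6 and scipy 1.17.1 were used; the counting was tested on simulated peaks. Promoters and gene order came from RefSeq GRCh38.p14 tables, matched by symbol. Named were the 3 widest H3K4me3 and RUNX1 peaks of each window, all SMA4 peaks, the peaks at BRD2, the 3 longest stretches without peaks and the 3 richest bins. The limits of the MHC classes are settings. Members, windows and lists were chosen with earlier results of these data known. Other overlap rules, window limits, gaps and motifs were tried.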

Additional observations from a re-analysis of the deposited data

How the results depend on the processing

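Of 120 alternative values for 37 results, 102 moved by less than the counting interval of the main value and 18 by more. When the midpoint of an H3K4me3 peak had to lie in a RUNX1 peak, the share with RUNX1 in the histone windows was 71.7% in place of 85.0% (all chromosomes, 78.9% in place of 88.1%). When peaks within 1 kb counted, the share in the MHC was 95.4% in place of 90.7%. The histone windows rose too, to 90.0%, and the share over all chromosomes was not computed under that rule. Restricted to bins with 4 or more H3K4me3 peaks, an alternative chosen after seeing the data, the share of RUNX1 peaks on H3K4me3 was 79.5% in the MHC and 52.1% on the rest of chromosome 6, in place of 65.8% and 27.9%. With each window narrowed on each side by 0.1 Mb (0.05 Mb for the first histone window), class III held 0 SMA4 peaks. The other moved values were the shares of peaks with a neighbour within 5 or 20 kb in place of 10 kb, and the shares of all promoters with a longer or wider RUNX motif, TGTGGTT (4.27%) or TGTGGT with TGCGGT (19.6%), in place of 13.1%. No paired analysis was possible because each antibody had 1 library. Peak widths and numbers depend on depth and calling thresholds, which are unknown here, and neighbouring peaks are not independent, so the intervals are too narrow by an unknown amount.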
